A study of Arabidopsis with 8 samples.

Results

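The comparison described here sets the root of the saur41/40/71/72 quadruple mutant of Arabidopsis thaliana against the root of Col-0, the wild type accession. The seedlings were 5 days old, no treatment is named in the labels, and each genotype has 2 root libraries, so that 4 of the 8 libraries of the study were used and the 4 shoot libraries were not. The genes compared were those with a mean of at least 1 FPKM over these 4 libraries, where FPKM is a fragment count scaled to transcript length and library size. They number 18909 of the 24141 genes listed in any of the 4 root libraries. The lowest gene inside that limit had a mean of 1.0004 FPKM and the highest outside had 0.99974 FPKM. The labels name neither the alleles of the mutant nor whether a library came from 1 plant or from a pool, and the p-values therefore measure only the spread between these libraries.

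SAUR genes (SMALL AUXIN UP RNA) form a large plant family, and many members are switched on quickly by the hormone auxin. Several SAUR proteins bind and inhibit phosphatases of the PP2C.D group, which otherwise keep the proton pumps of the plasma membrane, the H+-ATPases, in a less active state. Active pumps acidify the cell wall, which loosens it and lets the cell expand. In the root this expansion takes place mainly above the meristem, and root hairs elongate by growth at their tip.

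The 4 root libraries listed between 22684 and 22858 genes each. Their depth relative to Col-0 replicate 1, read from the spacing of the low FPKM values, was 1.08 and 1.03 in the mutant roots and 0.874 in Col-0 replicate 2. Organelle genes took 0.0587% and 0.0673% of all FPKM in the mutant roots and 0.053% and 0.131% in the Col-0 roots, with Col-0 replicate 2 the highest. That library was also the shallowest, and its part in the results beyond the fits without it was not tested. Pearson correlations of log2(FPKM + 1) between libraries across genes lay between 0.99 and 0.994. Root identity could be checked on SHR, SCR, PLT1, PLT2, WOX5, CASP1, RHD6 and GL2: all 8 reached the FPKM limit, and their summed level was 200.8 and 190.3 FPKM in the mutant roots, against 186.9 and 185.9 FPKM in the Col-0 roots. The 8 shoot markers summed to 34.2 and 40.5 FPKM in the mutant roots and to 38.5 and 40.2 FPKM in the Col-0 roots, with 4 of the 8 under the FPKM limit and the stomatal gene FAMA at 0 in all 4 libraries.

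The mutated genes came first. SAUR72 (AT3G12830; TAIR10 chromosome 3, 4078651 to 4079608) had 16.9 and 16.3 FPKM in the mutant roots, against 23.4 and 31.6 FPKM in the Col-0 roots. Both mutant values lay below both Col-0 values, but the log2 change of -0.68 (SE 0.13) did not pass (limma adjusted p = 0.107). SAUR41 (AT1G16510; chromosome 1, 5644572 to 5645443) had 7.75 and 7.10 FPKM in the mutant roots and 7.98 and 7.15 FPKM in Col-0, so that the genotypes overlapped (log2 change -0.02, adjusted p = 0.953). SAUR71 was low in every root library, at 0.471 and 0.580 FPKM in the mutant and 0.173 and 0.986 FPKM in Col-0. SAUR40 was listed in 1 root library only, mutant replicate 2, at 0.0730 FPKM. SAUR71 and SAUR40 were under the FPKM limit and were not tested. The labels do not say where the lesions lie, so the level of a whole transcript does not check the genotype labels.

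Changes were measured as the difference in mean log2(FPKM + 1), mutant minus Col-0, which understates the ratio of low genes. The test was limma's moderated test with Benjamini-Hochberg adjustment over all 18909 genes and a threshold of 0.05. By this test 38 genes passed, which is 0.201% of those tested. Of these, 21 rose in the mutant roots (0.111%) and 17 fell (0.0899%). The changes of genes at large were small: 98.6% of them lay within 0.5 of 0, and the median was -0.01. Only 10 of the 38 genes that passed had a change of at least 1 in size, 5 in each direction, and the smallest change that passed was 0.46. At an unadjusted p under 0.05 there were 2310 genes, 854 higher and 1456 lower in the mutant. The count changed with the settings: 3 genes passed when the moderated spread was not allowed to follow the mean level, 6 passed when no FPKM limit was set, and between 50 and 146 passed with 1 library left out. The split between genes that rose and fell was 18 and 9 after quantile normalization, and 20 and 6 after removal of a trend with gene length that is described further on.

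**Figure D1:**
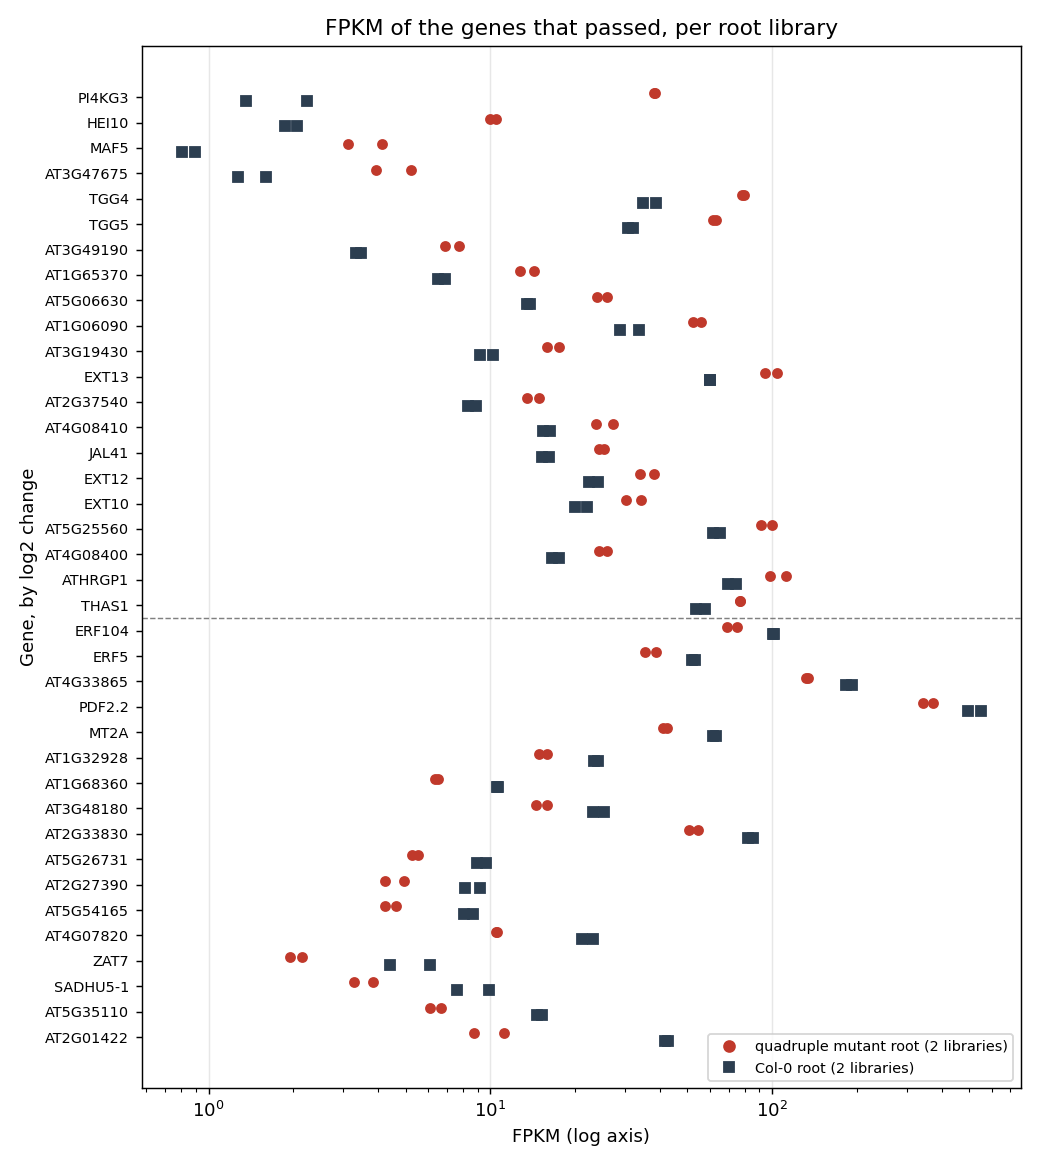
FPKM on a log axis for the 38 genes that passed, with the 2 mutant root libraries as circles and the 2 Col-0 root libraries as squares, ordered by log2 change from PI4KG3 (3.83) to AT2G01422 (-1.98). The dashed line separates the 21 genes that rose from the 17 that fell, and in every gene shown both mutant values lie on 1 side of both Col-0 values.

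PI4KG3 (AT5G24240; chromosome 5, 8228892 to 8234652), a gene of the gamma-type phosphatidylinositol 4-kinases, had the largest change among the genes that passed. It had 38.3 and 38.2 FPKM in the mutant roots, against 2.23 and 1.36 FPKM in the Col-0 roots, a ratio of means of 21.3 (log2 change 3.83, SE 0.14, limma adjusted p = 2.95e-05). The rest of its family did not move with it. PI4KG7 had 41.0 and 38.4 FPKM in the mutant and 41.3 and 43.7 FPKM in Col-0, and PI4KG4 had 50.6 and 50.9 FPKM in the mutant and 52.2 and 46.6 FPKM in Col-0. None of the other 5 tested kinases of the list passed, and the median of the 6 was 0.03. The mutant level of PI4KG3 was close to the level that PI4KG7 has in either genotype.

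HEI10 (AT1G53490; chromosome 1, 19963047 to 19969757) codes for a RING-finger protein that promotes crossovers in meiosis. It had 9.95 and 10.5 FPKM in the mutant roots, against 1.86 and 2.07 FPKM in the Col-0 roots (ratio of means 5.19, log2 change 1.92, SE 0.12, adjusted p = 1.62e-04). DMC1, the meiotic recombinase, had 4.49 and 5.57 FPKM in the mutant and 5.26 and 4.71 FPKM in Col-0, and the genotypes overlapped. Of the 5 tested members of that list only HEI10 passed.

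The deposited tables give overlapping genes 1 merged locus, and PI4KG3 and HEI10 both lie in one. PI4KG3 shares its locus with AT5G24230, at 14.8 and 12.8 FPKM in the mutant and 15.02 and 14.0 FPKM in Col-0, and with AT5G24250, at 0.0627 FPKM in 1 mutant library and 0 in the others. HEI10 shares its locus with RHM2, a rhamnose synthase gene, at 29.3 and 28.8 FPKM in the mutant and 29.6 and 28.2 FPKM in Col-0. MRD1, the other gene of that locus, was at 0.711 and 0.531 FPKM in the mutant and was not listed in Col-0. The neighbour expressed above the FPKM limit therefore overlapped between genotypes in both loci. Nothing in the labels says whether the counting used strand, so reads shared within a locus could have gone to either gene. In all, 15.6% of tested genes share a locus, as did 4 of the genes that rose and 2 of those that fell.

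MAF5 (AT5G65080; chromosome 5, 25997504 to 26002465) belongs to the FLC group of MADS-box genes, which repress flowering. It had 4.12 and 3.12 FPKM in the mutant roots, against 0.804 and 0.897 FPKM in the Col-0 roots (log2 change 1.31, SE 0.16, adjusted p = 0.0191). Its neighbour on the chromosome, MAF4 (25992243 to 25996174), had 4.80 and 3.48 FPKM in the mutant and 1.63 and 2.02 FPKM in Col-0, which did not pass (0.86, adjusted p = 0.0909). MAF3, next in the same cluster, had 8.79 and 7.84 FPKM in the mutant and 7.43 and 7.67 FPKM in Col-0. FLC itself was low and overlapped, at 0.988 and 1.31 FPKM in the mutant and 0.764 and 1.95 FPKM in Col-0. This list, like those of the extensins, myrosinases, metallothioneins, defensins and triterpene genes that follow, was written after values of these genes had been seen. The remaining lists were not blind either, since they were chosen with earlier results of these data known.

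Both tested myrosinase genes rose. Myrosinases are thioglucosidases that split glucosinolates, the sulphur-rich defence compounds of the cabbage family. TGG4 (AT1G47600; chromosome 1, 17491732 to 17494759) had 79.4 and 78.3 FPKM in the mutant roots, against 34.8 and 38.6 FPKM in the Col-0 roots (log2 change 1.08, SE 0.08, adjusted p = 4.87e-04). TGG5 (AT1G51470; chromosome 1, 19087413 to 19090414) had 63.4 and 61.5 FPKM in the mutant roots, against 30.8 and 32.0 FPKM in the Col-0 roots (0.97, SE 0.07, adjusted p = 6.14e-04). The mutant means were 2.15 and 1.99 times the Col-0 means. The 2 genes are near-copies of each other, so reads could be split between them, but they lie at separate loci and both stood higher in both mutant libraries. Of the 2 genes on either side of each, none that was tested passed.

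Wall glycoproteins made up a further share of the genes that rose. Extensins are hydroxyproline-rich proteins that are cross-linked into the cell wall. EXT13 (AT5G35190; chromosome 5, 13434181 to 13435167) had 94.2 and 103.7 FPKM in the mutant roots, against 60.1 and 59.9 FPKM in the Col-0 roots (log2 change 0.71, SE 0.07, adjusted p = 0.00709). EXT12 (AT4G13390) had 34.1 and 38.1 FPKM in the mutant and 24.0 and 22.3 FPKM in Col-0 (0.62, adjusted p = 0.0305). EXT10 (AT5G06640) had 30.2 and 34.3 FPKM in the mutant and 20.0 and 21.9 FPKM in Col-0 (0.59, adjusted p = 0.0452). All 3 passed. All 7 tested genes of the extensin list were higher in the mutant, 6 of them without overlap, with a median change of 0.59. The list holds these 7 genes only, and related wall protein genes outside it were not counted. Over all genes tested 48.3% were higher, 20.9% were higher without overlap, and 44.1% did not overlap in either direction.

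EXT6, which did not pass, had 33.6 and 39.5 FPKM in the mutant and 22.8 and 25.1 FPKM in Col-0 (0.59, adjusted p = 0.0551). EXT3, the most abundant, had 3762 and 3587 FPKM in the mutant and 3230 and 2913 FPKM in Col-0 (0.26, adjusted p = 0.237). ATHRGP1, named for another hydroxyproline-rich glycoprotein, rose with 98.3 and 112.2 FPKM in the mutant and 69.8 and 74.4 FPKM in Col-0 (0.54, adjusted p = 0.0464). Some of these calls were lost when 1 library was left out, which leaves 1 library in that genotype. EXT10 did not pass without Col-0 replicate 1, EXT12 did not pass without Col-0 replicate 2, and ATHRGP1 did not pass without either of them. Why these calls were lost was not tested. After removal of the length trend EXT10 (limma adjusted p = 0.0579) and ATHRGP1 (0.0736) did not pass, while EXT12 (0.0315) and EXT13 (0.00564) did. Extensin genes carry repeats and resemble one another, so how reads were shared among them is uncertain.

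Root hair genes as a whole lay higher in the mutant. Of the 19 listed genes, all were tested and 19 were higher in the mutant, 16 without overlap, with a median change of 0.26. The shares of all tested genes were 48.3% higher and 20.9% higher without overlap. EXT12 alone passed. BHLH54, known as RSL4 and a driver of hair elongation, had 6.39 and 6.76 FPKM in the mutant roots and 5.33 and 4.40 FPKM in the Col-0 roots (0.37, adjusted p = 0.275). PRP3, a proline-rich wall protein gene, had 80.0 and 79.7 FPKM in the mutant and 65.2 and 62.4 FPKM in Col-0 (0.32, adjusted p = 0.117). The peroxidase gene PER7 had 53.1 and 51.2 FPKM in the mutant and 44.5 and 40.4 FPKM in Col-0 (0.29), and RBOHC, the NADPH oxidase of root hair tips, had 22.7 and 24.9 FPKM in the mutant and 20.8 and 20.3 FPKM in Col-0 (0.20).

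The exceptions to separation were BHLH85, BHLH86 and ADF8, whose values overlapped between genotypes. BHLH85, a related regulator known as RSL2, had 7.55 and 8.001 FPKM in the mutant and 8.56 and 6.44 FPKM in Col-0. The median of the list was 0.27 once the gene length trend had been taken out, and with each library left out in turn it lay between 0.18 and 0.31. The 7 markers of root hair cells are all members of the same list. They summed to 182.2 and 183.2 FPKM in the mutant and to 157.9 and 143.7 FPKM in Col-0. None of the 7 was at 0 and none passed. In whole roots, more hair cells and more RNA of these genes per hair cell cannot be told apart. Among the regulators that specify hair and non-hair cells, CPC, a mobile repressor, had 9.29 and 9.40 FPKM in the mutant and 11.1 and 12.6 FPKM in Col-0 (-0.31, adjusted p = 0.266), and 0 of 6 tested members passed.

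**Figure D2:**
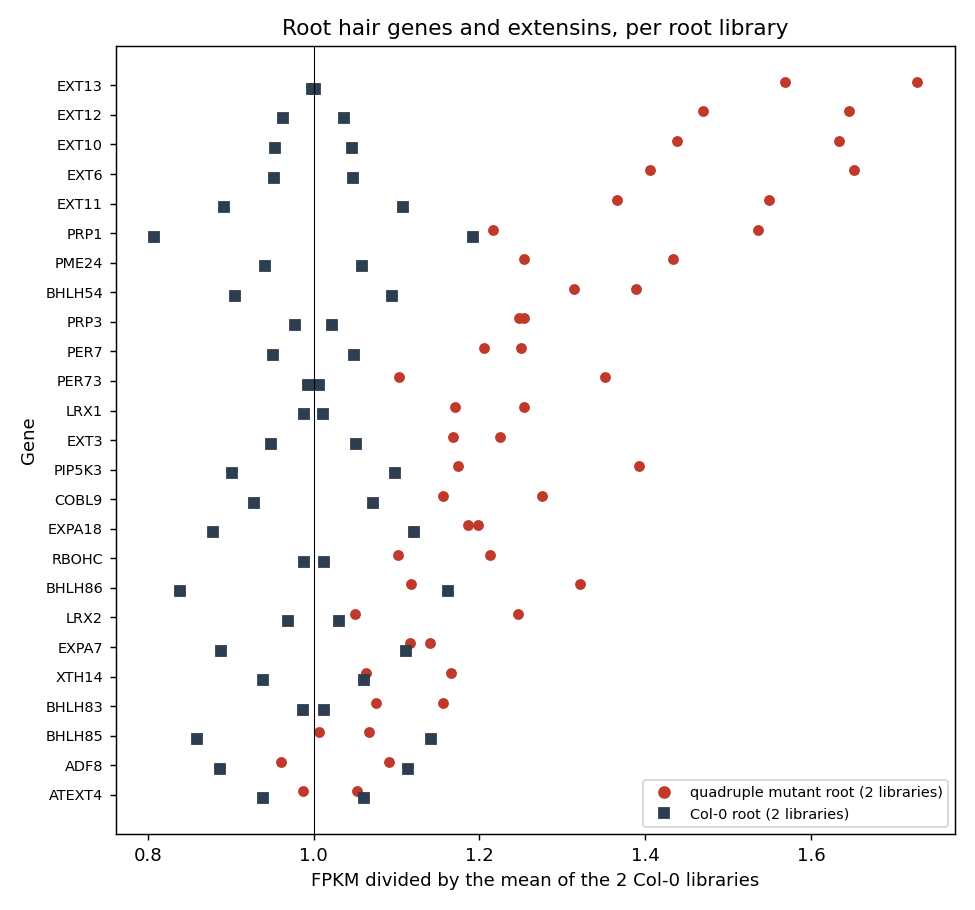
FPKM of the root hair genes and extensins in each root library, divided by the mean of the 2 Col-0 libraries, with mutant libraries as circles and Col-0 libraries as squares. From EXT13 (log2 change 0.71) at the top to ATEXT4 (0.03) at the bottom, the 2 mutant libraries lie right of both Col-0 libraries in every gene except BHLH86, BHLH85, ADF8 and ATEXT4.

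THAS1 (AT5G48010; chromosome 5, 19456960 to 19461689), thalianol synthase, makes a triterpene of the root and stands in a cluster with the enzymes that modify it. It rose, with 77.0 and 76.8 FPKM in the mutant roots, against 57.5 and 53.5 FPKM in the Col-0 roots (log2 change 0.46, SE 0.07, adjusted p = 0.0464), but it did not pass without Col-0 replicate 2 or after removal of the length trend (change 0.40, adjusted p = 0.115). CYP705A5, of the same cluster, had 136.2 and 126.7 FPKM in the mutant and 101.5 and 91.2 FPKM in Col-0 (0.45, adjusted p = 0.0738). MRN1, marneral synthase in a second such cluster, had 8.58 and 8.31 FPKM in the mutant and 5.32 and 4.86 FPKM in Col-0 (0.64, adjusted p = 0.0689). All 6 genes of the clusters that were looked at were higher in both mutant libraries than in both Col-0 libraries, with a median of 0.44, and 1 passed. Of all genes tested 20.9% were higher without overlap, and these 6 were chosen after their values had been seen.

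Among the remaining genes that rose, JAL41, a gene of the jacalin lectin family, had 25.2 and 24.3 FPKM in the mutant and 15.2 and 16.1 FPKM in Col-0 (0.63, adjusted p = 0.0242). AT1G06090 had 56.1 and 52.5 FPKM in the mutant and 28.8 and 33.6 FPKM in Col-0 (0.78, adjusted p = 0.0106). AT1G65370 had 12.8 and 14.3 FPKM in the mutant and 6.51 and 6.90 FPKM in Col-0 (0.91, adjusted p = 0.0106). AT5G06630, which lies beside EXT10, had 23.8 and 25.9 FPKM in the mutant and 13.8 and 13.5 FPKM in Col-0 (0.81, adjusted p = 0.00709). The pair AT4G08410 and AT4G08400 changed by 0.65 and 0.54. AT3G47675 and AT3G49190 rose at lower levels, with changes of 1.19 and 0.92. Without Col-0 replicate 2 AT3G47675, AT4G08410 and AT4G08400 did not pass, and neither did AT4G08400 without mutant replicate 2. The genes named in this paragraph were protein coding, as were all 21 that rose.

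The largest decrease among the genes that passed was in a non-coding RNA gene. AT2G01422 (chromosome 2, 183940 to 184734) had 8.78 and 11.2 FPKM in the mutant roots, against 42.6 and 41.6 FPKM in the Col-0 roots (log2 change -1.98, SE 0.11, adjusted p = 1.21e-04). The Col-0 mean was 4.22 times the mutant mean. The gene next to it at lower coordinates is PIN4 (180105 to 183328), which codes for an auxin efflux carrier, and the 2 loci do not overlap. PIN4 had 13.9 and 15.7 FPKM in the mutant and 10.98 and 12.4 FPKM in Col-0 (0.32, adjusted p = 0.256). On the other side ATHB-17, a homeodomain transcription factor gene, had 22.4 and 24.6 FPKM in the mutant and 28.9 and 25.2 FPKM in Col-0 (-0.19, adjusted p = 0.441). Neither neighbour passed, although both were without overlap between genotypes.

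**Figure D3:**
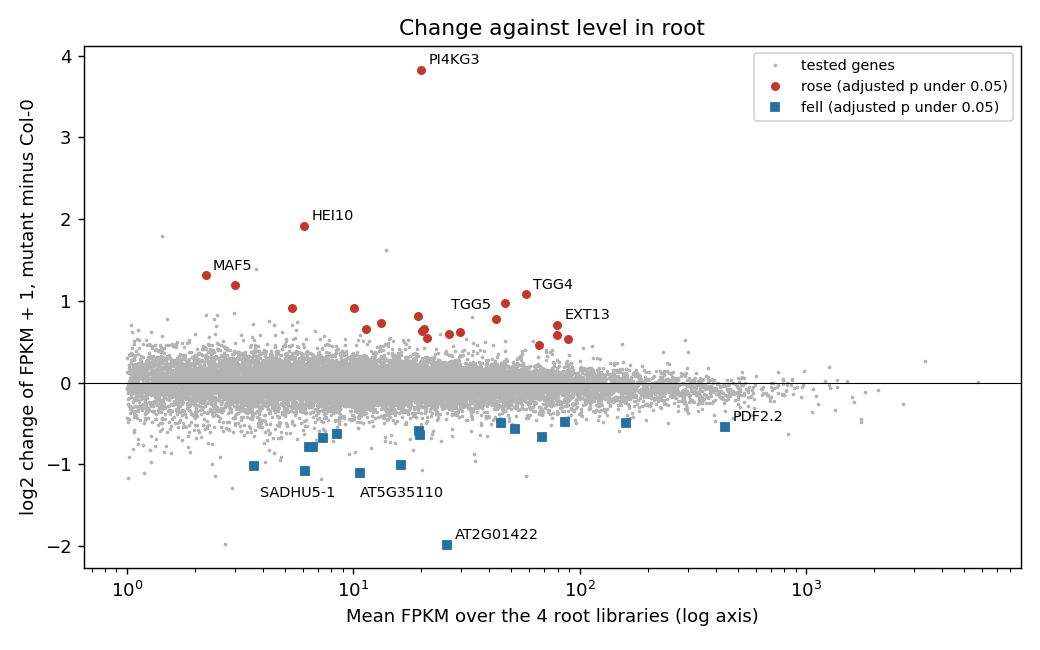
Log2 change of FPKM + 1, mutant minus Col-0, against the mean FPKM over the 4 root libraries on a log axis, with 1 point per tested gene. Circles mark the 21 genes that rose, squares the 17 that fell, and grey points the rest. PI4KG3, HEI10 and AT2G01422 lie farthest from 0 among the genes that passed, and some grey points have large changes that did not pass.

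A second feature that fell was also not protein coding. SADHU5-1 (AT4G01525; chromosome 4, 660810 to 661698), annotated as a pseudogene and named for the Sadhu retrotransposons, had 3.29 and 3.83 FPKM in the mutant roots, against 7.63 and 9.85 FPKM in the Col-0 roots (-1.09, SE 0.14, adjusted p = 0.0220). After removal of the length trend it changed by -0.96 (adjusted p = 0.0506). The other 15 genes that fell were protein coding. AT5G35110 had 6.70 and 6.12 FPKM in the mutant and 15.3 and 14.7 FPKM in Col-0 (-1.11, adjusted p = 0.00203). AT4G07820 had 10.5 and 10.5 FPKM in the mutant and 21.1 and 23.2 FPKM in Col-0 (-1.01, adjusted p = 0.00203). AT2G33830, annotated as the dormancy associated gene DRM2, had 54.6 and 50.5 FPKM in the mutant and 85.4 and 81.7 FPKM in Col-0 (-0.66, adjusted p = 0.0106).

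Stress-responsive transcription factors were among the genes that fell. ZAT7 (AT3G46090), a zinc-finger gene of the stress response, had 2.15 and 1.95 FPKM in the mutant roots, against 4.41 and 6.09 FPKM in the Col-0 roots (-1.02, SE 0.16, adjusted p = 0.0452). ERF5 (AT5G47230), an ethylene response factor gene, had 35.4 and 38.8 FPKM in the mutant and 53.0 and 52.0 FPKM in Col-0 (-0.49, SE 0.08, adjusted p = 0.0464). ERF104 (AT5G61600), of the same family, had 69.0 and 75.1 FPKM in the mutant and 101.4 and 100.3 FPKM in Col-0 (-0.48, SE 0.07, adjusted p = 0.0452). These calls were close to the threshold. ZAT7 did not pass without Col-0 replicate 2, and ERF5 and ERF104 passed with only 1 of the 4 libraries left out. After removal of the gene length trend ZAT7 changed by -0.85 (adjusted p = 0.126), ERF5 by -0.40 (0.159) and ERF104 by -0.37 (0.175), so that none passed.

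ERF5 belongs to the list of genes that respond within minutes to touch, wounding or cold, and it was the only 1 of 20 tested members to pass. In that list 18 members were lower in the mutant, 11 without overlap, with a median of -0.27. For all genes tested 23.2% were lower without overlap. ERF6 had 33.0 and 39.6 FPKM in the mutant and 50.8 and 51.3 FPKM in Col-0 (-0.49, adjusted p = 0.0909), and ZAT10 had 97.0 and 112.5 FPKM in the mutant and 135.4 and 144.0 FPKM in Col-0 (-0.42, adjusted p = 0.101). The cold regulator DREB1B, chosen after its values were seen, had 2.00 and 3.95 FPKM in the mutant and 5.80 and 7.18 FPKM in Col-0 (-0.95, adjusted p = 0.205). Mutant replicate 1 was the lower of the mutant libraries for every member except ERF1A. The median of the list lay between -0.43 and -0.13 with each library left out in turn, and was -0.17 after removal of the length trend.

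No calcium sensor gene passed. Of 41 tested calmodulin and calmodulin-like genes, 34 were lower in the mutant, 20 without overlap, with a median of -0.19. Among all genes 23.2% were lower without overlap. CML36 had 33.0 and 32.1 FPKM in the mutant and 44.2 and 44.6 FPKM in Col-0 (-0.44, adjusted p = 0.0603). CML30 varied between the mutant libraries, at 14.5 and 33.9 FPKM, and had 50.7 and 38.8 FPKM in Col-0 (-0.96, adjusted p = 0.623). The pumps and exchangers that move calcium out of the cytosol were higher in 15 of 21 cases (median 0.07, 0 passed), with ECA3 at 29.2 and 28.6 FPKM in the mutant and 24.2 and 24.3 FPKM in Col-0 (0.25). The lists differ in gene length, and with the length trend removed their medians were -0.07 and 0.01.

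Genes of the abscisic acid and dehydration response were lower in 13 of 17 cases, 7 without overlap, with a median of -0.14 and 0 passed. The share of all genes lower without overlap was 23.2%. LTI78, also called RD29A, had 6.69 and 6.04 FPKM in the mutant roots and 15.3 and 10.2 FPKM in the Col-0 roots (-0.88, SE 0.17, adjusted p = 0.113). RD22 had 7.36 and 8.67 FPKM in the mutant and 9.54 and 13.5 FPKM in Col-0 (-0.46, adjusted p = 0.310). Among the sodium tolerance genes, 6 of 8 were higher (median 0.11, or 0.05 after removal of the length trend, 0 passed). HKT1, the sodium transporter of the xylem parenchyma, had 7.36 and 6.88 FPKM in the mutant and 6.58 and 4.97 FPKM in Col-0 (0.27, adjusted p = 0.454).

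Small metal-binding and defence proteins supplied other genes that fell. MT2A (AT3G09390), a metallothionein gene, had 42.2 and 41.0 FPKM in the mutant roots, against 61.6 and 63.1 FPKM in the Col-0 roots (-0.57, SE 0.07, adjusted p = 0.0191). MT2B, a far more abundant metallothionein gene on chromosome 5 whose merged locus also holds another gene, had 921 and 933 FPKM in the mutant and 1091 and 1293 FPKM in Col-0 (-0.36, adjusted p = 0.155). PDF2.2 (AT2G02100), a plant defensin gene, had 372.7 and 343.1 FPKM in the mutant and 494.7 and 548.3 FPKM in Col-0 (-0.54, SE 0.08, adjusted p = 0.0365). Its relative PDF2.3 had 864 and 804 FPKM in the mutant and 900 and 930 FPKM in Col-0 (-0.13, adjusted p = 0.481). PDF2.2 did not pass without Col-0 replicate 2. After removal of the length trend MT2A changed by -0.42 (adjusted p = 0.0913) and PDF2.2 by -0.39 (adjusted p = 0.164), and neither passed.

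Genes for the pumps and phosphatases that SAUR proteins act on gave no call. All 8 tested plasma membrane H+-ATPase genes were higher in the mutant, 5 without overlap, against 20.9% of all genes. Their median was 0.28, and 0 passed. AHA1, AHA2 and AHA3 changed by 0.08, 0.03 and 0.05, and the other 5 by at least 0.26. AHA2 and AHA1, the major pumps, had 888 and 859 FPKM and 290 and 283 FPKM in the mutant, against 808 and 902 FPKM and 260 and 285 FPKM in Col-0. AHA7 had 14.4 and 15.3 FPKM in the mutant and 10.4 and 11.1 FPKM in Col-0 (0.43, adjusted p = 0.113), and AHA11 had 15.4 and 14.2 FPKM in the mutant and 11.7 and 11.9 FPKM in Col-0 (0.30, adjusted p = 0.237). These are long genes, with a median locus of 5627 bp, and their median was 0.15 after removal of the length trend, when AHA1, AHA2 and AHA3 were at -0.01, -0.05 and -0.04.

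All 8 tested PP2C.D phosphatase genes were lower in the mutant, 3 without overlap, but by small amounts. The largest change was -0.14, the median was -0.05, and 0 passed. The share of all genes that were lower without overlap was 23.2%. PP2C6 had 19.2 and 22.9 FPKM in the mutant and 23.7 and 21.4 FPKM in Col-0. The other SAUR genes were lower in 22 of 30 tested cases, 12 without overlap, with a median of -0.20 and 0 passed. SAUR36 had 19.3 and 18.0 FPKM in the mutant and 23.1 and 22.6 FPKM in Col-0 (-0.29, adjusted p = 0.222). SAUR genes are short, with a median locus of 751.5 bp, and with the length trend taken out the median of the list was -0.00.

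Other auxin genes gave no call. Of 22 tested Aux/IAA repressor genes 15 were lower (median -0.05), with IAA13 at 49.1 and 45.3 FPKM in the mutant and 58.7 and 60.4 FPKM in Col-0 (-0.33, adjusted p = 0.132). All 6 tested GH3 genes, which code for enzymes that conjugate auxin or related acids, were lower, 2 of them without overlap (median -0.14). Of all genes 23.2% were lower without overlap. The auxin response factors and receptors had a median of -0.03 and the auxin transport genes 0.02. Of the transport genes PIN2, the carrier of the root epidermis and cortex, had 62.8 and 67.2 FPKM in the mutant and 56.6 and 55.7 FPKM in Col-0 (0.21, adjusted p = 0.303).

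Wall-loosening enzymes were mixed. Of 21 tested expansins 11 were higher (median 0.02, 0 passed). Xyloglucan endotransglucosylases, which cut and rejoin wall xyloglucan, were higher in 15 of 25 cases (median 0.11, 0 passed). XTH13 had 7.16 and 7.83 FPKM in the mutant and 5.04 and 4.66 FPKM in Col-0 (0.54, adjusted p = 0.110), and XTH20 lay the other way, with 28.3 and 28.8 FPKM in the mutant and 34.2 and 36.0 FPKM in Col-0 (-0.29, adjusted p = 0.187). The class III peroxidases had a median of 0.04, with 12 of 56 higher and 2 lower without overlap. The shares of all genes were 20.9% higher and 23.2% lower without overlap, so the higher count was near that of genes at large. PER35 had 33.0 and 30.9 FPKM in the mutant and 23.9 and 24.4 FPKM in Col-0 (0.39, adjusted p = 0.0973).

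**Figure D4:**
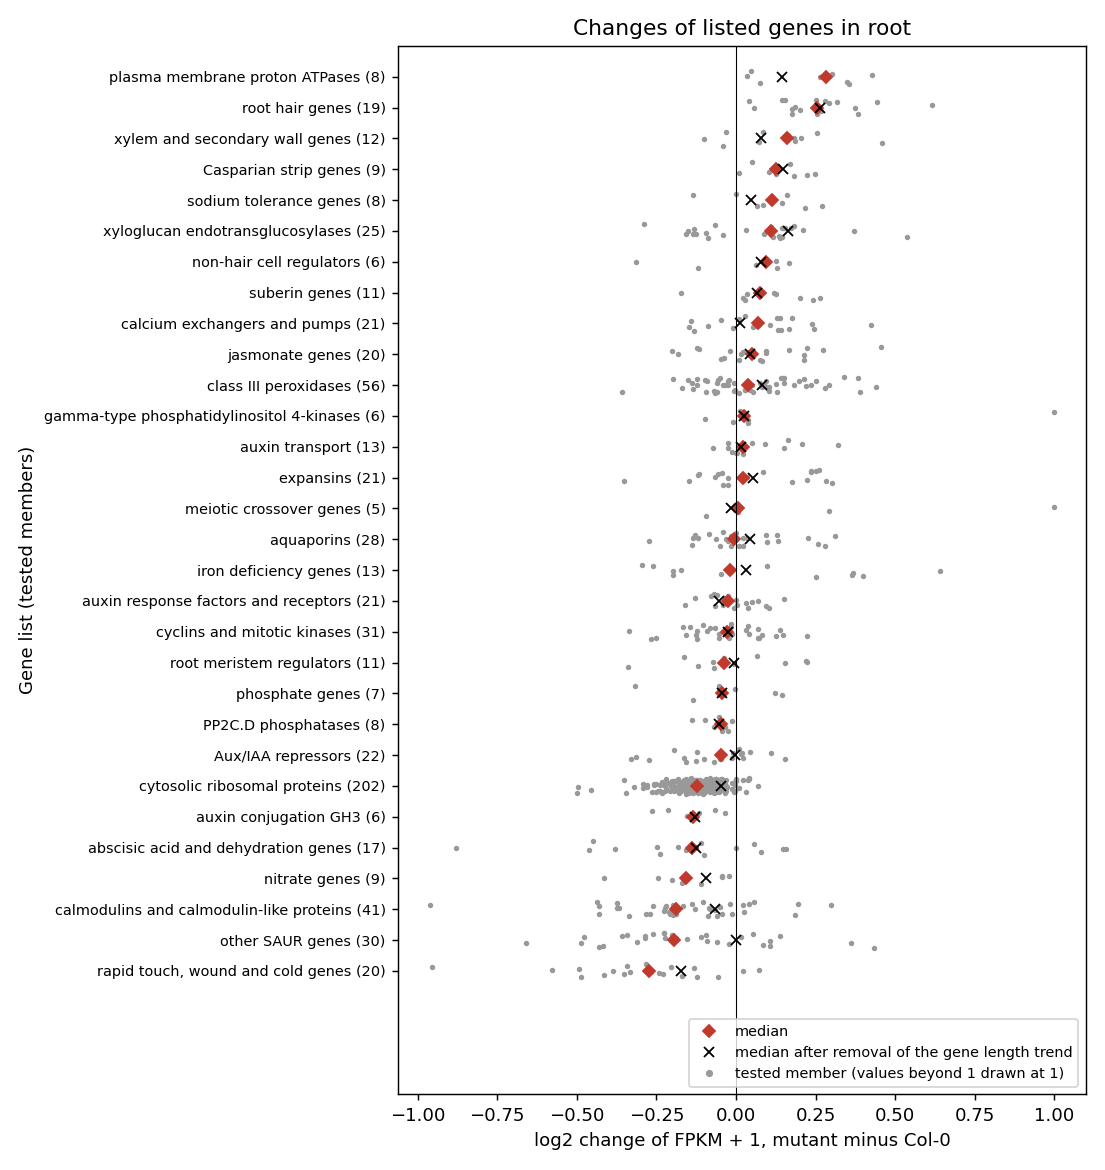
Log2 change of FPKM + 1, mutant minus Col-0, of each tested member of the 30 lists with at least 5 tested members. Grey points are members, drawn at 1 where beyond it. Diamonds give the median and crosses the median after removal of the gene length trend. Lists added after values of their genes were seen (extensins and others) are left out. Those drawn were also chosen with earlier results of these data known. The H+-ATPase (0.28) and root hair (0.26) lists have the highest medians of those drawn and the touch, wound and cold list (-0.27) the lowest, while the cross of the other SAUR genes lies at 0.

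No gene of the inner root tissue lists passed. All 9 Casparian strip genes were higher in the mutant, but only 2 without overlap (median 0.13), a share near the 20.9% of all genes. Of 11 tested suberin genes 10 were higher, 3 without overlap (median 0.08), which is also near that share, with ABCG6 at 55.6 and 48.6 FPKM in the mutant and 44.6 and 41.8 FPKM in Col-0 (0.26, adjusted p = 0.268). Xylem and secondary wall genes were higher in 9 of 12 cases, 7 without overlap (median 0.16, or 0.08 after removal of the length trend). XCP2, a protease of xylem vessels, had 86.2 and 90.8 FPKM in the mutant and 69.2 and 79.2 FPKM in Col-0 (0.26, adjusted p = 0.267). The endodermis markers summed to 372.2 and 326.1 FPKM in the mutant and 338.4 and 298.3 FPKM in Col-0, which overlap. The xylem markers summed to 219.8 and 230.5 FPKM in the mutant and 183.9 and 203.5 FPKM in Col-0, and the root cap markers to 18.4 and 17.2 FPKM in the mutant and 15.7 and 14.9 FPKM in Col-0. The part of tissue makeup in the results was not tested.

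Growth and division genes showed little. Root meristem regulators were higher in 4 and lower in 7 of 11 cases (median -0.04), with PLT1 at 5.88 and 5.71 FPKM in the mutant and 5.29 and 7.13 FPKM in Col-0. Cyclins and mitotic kinases had a median of -0.03 over 31 tested genes. Neither list had a member that passed. Cytosolic ribosomal protein genes were lower in 195 of 202 cases, 130 of them without overlap, by a median of -0.12. By comparison 23.2% of all genes were lower without overlap. AT4G33865, which the deposited tables name RPS29A, was the 1 that passed, with 133.7 and 131.3 FPKM in the mutant and 183.0 and 192.5 FPKM in Col-0 (-0.50, adjusted p = 0.0281), though not without Col-0 replicate 2. RPL39C had 101.7 and 100.3 FPKM in the mutant and 124.9 and 133.7 FPKM in Col-0 (-0.35, adjusted p = 0.0973). The median of the list was -0.05 after removal of the length trend.

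Nutrient genes were tested as well. All 9 nitrate genes were lower in the mutant, 5 without overlap, with a median of -0.16 and 0 passed. With the length trend removed the median was -0.09. The shares of all genes were 23.2% lower and 20.9% higher without overlap. NRT3.1, the partner protein of the high-affinity nitrate transporters, had 90.6 and 85.5 FPKM in the mutant and 120.4 and 115.0 FPKM in Col-0 (-0.41, adjusted p = 0.0689). The iron deficiency genes were split, with 6 of 13 higher and 6 lower without overlap. CYP82C4, which acts in coumarin synthesis under iron shortage, had 7.21 and 6.92 FPKM in the mutant and 4.39 and 3.96 FPKM in Col-0 (0.64, adjusted p = 0.0774), and the iron transporter gene IRT1 had 16.0 and 17.6 FPKM in the mutant and 12.9 and 12.7 FPKM in Col-0 (0.37, adjusted p = 0.156). On the other side NAS4, a nicotianamine synthase gene, had 18.7 and 16.6 FPKM in the mutant and 19.8 and 23.1 FPKM in Col-0 (-0.26). Phosphate genes (median -0.04), jasmonate genes (0.05) and aquaporins (-0.01, or 0.04 after removal of the length trend) had no member that passed.

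Change followed the length of the gene across the whole root comparison. Spearman's rho between the span of the deposited locus and the log2 change was 0.419 across the 18909 genes, which are not independent replicates and share the same 4 libraries. In each of the 4 pairings of a mutant with a Col-0 library rho lay between 0.278 and 0.373. Between the 2 mutant libraries (replicate 1 minus replicate 2) rho was -0.128, and between the 2 Col-0 libraries it was 0.00417. In 5 classes of equal size by span, the median change was -0.12, -0.05, -0.01, 0.03 and 0.09 in order of length. Of the 17 genes that fell 16 lay in the shortest class, and the genes that rose were spread as 3, 5, 4, 4 and 5. The median span was 795 bp for genes that fell, 2153 bp for genes that rose and 2432 bp for all tested genes.

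When each library was adjusted by a smooth curve of its deviation on locus span, rho was -0.00 and 26 genes passed, 20 that rose and 6 that fell. Of the 38 genes, 22 were among them, 17 that rose and 5 that fell. PI4KG3 (3.75), HEI10 (1.81), MAF5 (1.25), TGG4 (1.06), TGG5 (0.95), EXT13 (0.83) and AT2G01422 (-1.84) still passed with these adjusted changes. What gave the length trend was not tested.

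**Figure D5:**
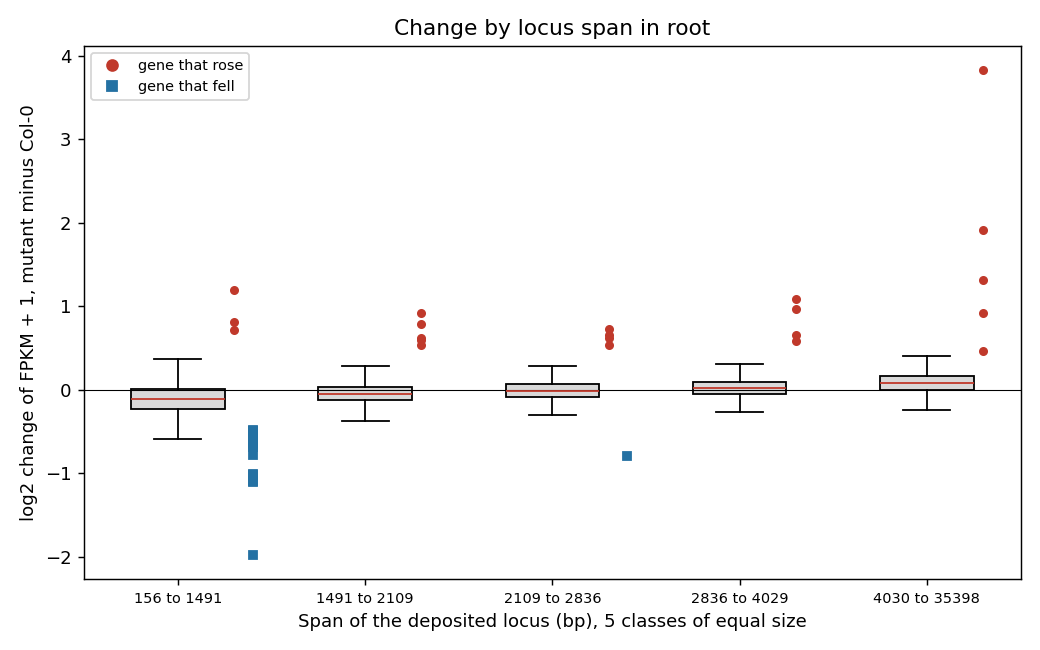
Log2 change of FPKM + 1, mutant minus Col-0, in 5 equal-sized classes of locus span in bp (boxes: quartiles and median; whiskers: the last gene within 1.5 times the box height; farther genes are not drawn). Circles mark genes that rose and squares genes that fell, placed beside their class, and 16 of the 17 squares lie in the shortest class.

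No gene that passed lay within 1 Mb of a mutated locus, but this depends on the limit chosen. Within 1 Mb of any of the 4 SAUR loci 1580 genes were tested, and 0 passed and 0 had a change of at least 1 in size without overlap (exact binomial 95% interval of that share, for counting error only, up to 0.233%). Elsewhere on the nuclear chromosomes 38 of 17291 genes passed and 16 had such a change (0.0925%). The interval near the loci includes this share. It treats genes as separate trials although all share the same 4 libraries, so no conclusion on near against elsewhere is drawn from it. The nearest were HEI10, 1.05 Mb from SAUR71, MT2A, 1.19 Mb from SAUR72, and TGG5, 1.93 Mb from SAUR71. Chromosome 5 held 13 of the 38 genes, and chromosomes 1 to 4 held 7, 5, 7 and 6.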

How the data were processed

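Total RNA of root was sequenced on an Illumina HiSeq, per the labels. The authors deposited 1 table of FPKM values per library, which lists genes above 0, and an absent gene was taken as 0. The build is TAIR10, per the submitters' processing notes. The aligner, quantifier, strand setting and read numbers were not given in the sources used here. No count model was run, and precision is that of 2 libraries per genotype. Coordinates are those of the deposited tables, 1-based. Symbols and biotypes come from the tables and from RefSeq (assembly TAIR10.1), which matched 23910 of the identifiers and left 231 unmatched.

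With limma 3.58.1 (R 4.3.3), log2(FPKM + 1) was modelled on genotype alone, with robust variance moderation along the mean trend (2 residual degrees of freedom, median prior of 7.59). P-values are 2-sided. An exact permutation test of 2 against 2 libraries cannot go below 0.333 and was not used. The fit was tested on simulated data.

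The gene lists (32, of which 30 of processes and families with at least 5 tested members are plotted, and 6 added ones) were written from general knowledge, and 28 loci pulled in by a synonym were dropped by name. They were described by counts and medians beside all tested genes, with no set test. The members and lists were chosen with earlier results of these data known. Named genes are the 4 mutated genes, the 12 largest increases and decreases that passed, the 12 largest each way without overlap at a mean of 5 FPKM or more, genes that share a locus with one that passed, and up to 4 members per list. Any other gene named was picked with its values in view. The length trend was removed with lowess (fraction 0.2). Replicate numbers were not taken as pairs.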

Additional observations from a re-analysis of the deposited data

How the results depend on the processing

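The signs of all 38 genes that passed held under every alternative that was run on them. Both mutant values of each lay on 1 side of both Col-0 values, so most alternatives could not change a sign. Only scaling, quantile normalization or removal of the length trend could have done so. The number that passed did change. Against 38 genes, 6 passed with no FPKM limit, 3 without the mean trend in the moderation, and 117 at a threshold of 0.1. With 1 library left out the count lay between 50 and 146, where the lone library of a genotype is assumed to vary like the others, and 18 of the 38 genes passed in all 4 such fits. With a pseudocount of 0.1 or 0.5, a limit of 5 FPKM, median-ratio scaling, quantile normalization or no robust fitting the counts were 39, 38, 55, 45, 27 and 26. Among genes with an unshared locus, an alternative chosen after seeing the data, 26 passed. The cause of these differences was not tested. PI4KG3, HEI10 and AT2G01422 passed in every alternative that included them.

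The replicate number as a block gave 282 genes, 82 higher and 200 lower. The labels do not say that a number marks a shared batch, and the deviations of same-numbered libraries had a correlation of 0.0417, so the pairing was not used.

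The Spearman correlation across genes between locus span and change was 0.486 at a mean of 5 FPKM or more and 0.481 for unshared loci. Within 2 Mb of a mutated locus 1 of 2991 genes (0.0334%) had a change of at least 1 in size without overlap. Of 30 lists, the medians of 3 (iron deficiency, aquaporins and meiotic crossover genes) changed sign after removal of the length trend, and those of 13 spanned 0 with a library left out, among them the xyloglucan endotransglucosylases (-0.02 to 0.15). With 2 libraries per genotype, small shifts of single genes were not detectable.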

Other observations

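Some genes had large changes without passing. Among those at a mean of 5 FPKM or more and without overlap between genotypes, AT2G14095 had 6.59 and 8.02 FPKM in the mutant roots and 3.61 and 4.35 FPKM in the Col-0 roots (log2 change 0.74, limma adjusted p = 0.0792). AT2G05510 had 20.5 and 25.8 FPKM in the mutant and 30.5 and 59.9 FPKM in Col-0 (-0.87, adjusted p = 0.559). GRP3S, a gene of the glycine-rich protein family, had 8.92 and 13.5 FPKM in the mutant and 15.2 and 23.8 FPKM in Col-0 (-0.74, adjusted p = 0.434). Col-0 replicate 2 was the highest library for AT2G05510 and GRP3S. Of genes listed in both libraries of 1 genotype and in neither of the other, 130 were listed in the mutant and 121 in Col-0, and a listing at these levels is not a test.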
